A study of Mus musculus with 8 samples.

Results

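The glutathione transferases and neighbouring detoxifying enzymes described here were 9 genes, chosen by symbol: Cbr2, Cyp2f2, Gsta3, Gsta4, Gsto1, Gstm1, Gstm2, Mgst1 and Aldh1a1. They were chosen with earlier results of these data known, so their standing against other genes is described, not tested. Every probe set of the array whose platform annotation gave one of these symbols was taken, which made 15 probe sets of the 20380 that carried a single symbol, and 9 genes of 12393. No probe set with several symbols held any of them. A filter on low signal kept 14 of the 15. The exception was the second Mgst1 probe set (1415898_at), whose signal ran from 0.0109 to 0.0262 over the 8 arrays.

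RNA from mouse eyes was hybridized to 8 expression arrays. The groups were KPAW eyes at 1 month, wild-type eyes at 1 month, KPAW eyes at 5 days and wild-type eyes at 5 days, each with 2 arrays, named I and II. KPAW is not expanded in the labels, which give no allele, promoter or treatment for it. They name C57Bl6 for the 5-day wild type and no strain for the other 3 groups. The labels do not state that arrays I and II came from different animals, so the p-values measure the spread between these arrays, which may be technical. A signal below is the deposited value after each array was scaled to a common trimmed mean, and a fold change is on the log2(signal + 0.0211) scale, which understates the change of dim probe sets.

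Detoxification runs in stages. Phase 1 enzymes such as cytochromes P450, carbonyl reductases and aldehyde dehydrogenases oxidise or reduce a compound, and phase 2 enzymes such as glutathione transferases join the product to glutathione, which makes it soluble and ready for export. The surface of the eye meets light, oxygen and airborne chemicals, and the mouse cornea is known for its very high content of one aldehyde dehydrogenase, Aldh3a1. Many genes of these families carry an antioxidant response element, the site through which the factor NRF2 (Nfe2l2) acts on its targets.

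Whole-eye identity was checked with marker lists. Lens markers summed to 52.6 to 79.6 on every array, and corneal epithelial markers were present on all 8. KPAW array I at 1 month stood apart: its rod photoreceptor markers summed to 2.43, against 37.0 on KPAW array II and 33.5 and 45.2 on the wild-type arrays of that age. Epidermal markers, scarce in an eye, summed to 29.4 and 11.2 on the KPAW arrays at 1 month, against 0.509 and 0.513 on the wild-type arrays. Across all probe sets kept, the arrays of a group correlated at 0.927 in KPAW at 1 month, 0.969 in wild type at 1 month, 0.946 in KPAW at 5 days and 0.964 in wild type at 5 days. The sex-linked transcripts also differed between ages. Xist was low (0.0523 to 0.0861) on all 1-month arrays and KPAW array I at 5 days, and high (2.95 to 3.64) on KPAW array II and both wild-type arrays at 5 days. Age and this marker cannot be told apart in wild type.

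The upstream sequence of 8 of the 9 genes was found in the RefSeq promoter table, and Gsta4 had no entry. Windows were read for the 250 bases before each start given in that table on build GRCm38.p6, written 5′ to 3′ on the gene's own strand. For Gsta3 and Cbr2 that start lies slightly inside the listed bounds of the gene. The letters TGACNNNGC, the core of the antioxidant response element, were searched on both strands. They occurred in 2 of the 11 windows of these genes, which include second starts, and in 3338 of 32851 windows over all genes (10.2%). The 5 windows shown are those of 4 genes whose signal rose with age, and that of Mgst1, which has a match but did not pass the test for age. Capitals mark the match, which began 121 bases before the start in Gsta3 on the same strand, and 56 bases before the start in Mgst1 on the opposite strand. The Gsta3 window is chr1:21240335-21240584 (plus strand), and the Mgst1 window is chr6:138140277-138140526 (plus strand). The Cbr2 window is chr11:120732022-120732271 (minus strand), the Cyp2f2 window chr7:27119705-27119954 (plus strand) and the Gsto1 window chr19:47854723-47854972 (plus strand).
Gsta3: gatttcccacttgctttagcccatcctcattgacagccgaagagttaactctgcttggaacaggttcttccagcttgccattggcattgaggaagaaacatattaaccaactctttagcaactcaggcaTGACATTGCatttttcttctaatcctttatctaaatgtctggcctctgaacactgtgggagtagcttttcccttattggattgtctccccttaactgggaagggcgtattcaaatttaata
Mgst1: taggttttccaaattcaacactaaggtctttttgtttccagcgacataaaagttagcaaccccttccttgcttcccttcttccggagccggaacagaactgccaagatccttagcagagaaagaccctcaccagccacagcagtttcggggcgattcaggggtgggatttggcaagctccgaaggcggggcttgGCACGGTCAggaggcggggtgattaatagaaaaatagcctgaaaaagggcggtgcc
Cbr2: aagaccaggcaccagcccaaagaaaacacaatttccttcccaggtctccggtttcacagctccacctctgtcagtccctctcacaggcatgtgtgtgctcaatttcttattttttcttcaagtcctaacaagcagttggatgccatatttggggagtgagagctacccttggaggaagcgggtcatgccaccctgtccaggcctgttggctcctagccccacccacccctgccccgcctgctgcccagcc
Cyp2f2: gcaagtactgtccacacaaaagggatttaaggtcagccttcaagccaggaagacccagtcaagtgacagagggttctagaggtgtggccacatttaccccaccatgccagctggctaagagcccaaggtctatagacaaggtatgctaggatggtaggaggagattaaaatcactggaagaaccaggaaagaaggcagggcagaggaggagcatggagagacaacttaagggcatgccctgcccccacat
Gsto1: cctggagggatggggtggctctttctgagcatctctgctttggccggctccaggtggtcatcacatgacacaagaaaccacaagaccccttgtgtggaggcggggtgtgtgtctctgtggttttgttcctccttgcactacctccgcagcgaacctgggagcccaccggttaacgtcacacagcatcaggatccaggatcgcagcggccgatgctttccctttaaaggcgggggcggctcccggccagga
The Cbr2, Cyp2f2 and Gsto1 windows held no such match, which says only that these letters are not in these bases. The letters TGACTCA, a site of the factor AP-1 that can overlap the longer core, occurred in 1 window of these genes, 57 bases before the first start of Aldh1a1, and in 1466 of all windows (4.46%).

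Age gave the clearest pattern. In KPAW eyes 6 of the 14 probe sets, from 5 of the 9 genes, were higher at 1 month than at 5 days and none was lower, and in wild-type eyes the counts were also 6, from 5 genes, and none. Among all 15838 probe sets tested, 6.76% passed as higher in KPAW eyes and 8.73% in wild-type eyes, out of 14.3% and 18.1% that passed in either direction. Each of Cbr2, Cyp2f2, Gsta3, Gsta4 and Gsto1 passed in both kinds of eye. The median log2 fold change over the 14 probe sets was 0.91 in KPAW eyes and 0.43 in wild-type eyes, beside medians of -0.04 and 0.00 over all probe sets. Over the 9 genes, each taken by its probe set with the highest mean signal, the medians were 2.05 and 1.82. Both 1-month arrays lay above both 5-day arrays for 11 of the 14 probe sets in KPAW eyes, where 25.3% of all probe sets did so, and for 9 in wild-type eyes, where 32.5% did. In these whole-eye samples, fewer cells of a type and less RNA per cell cannot be told apart.

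**Figure D1:**
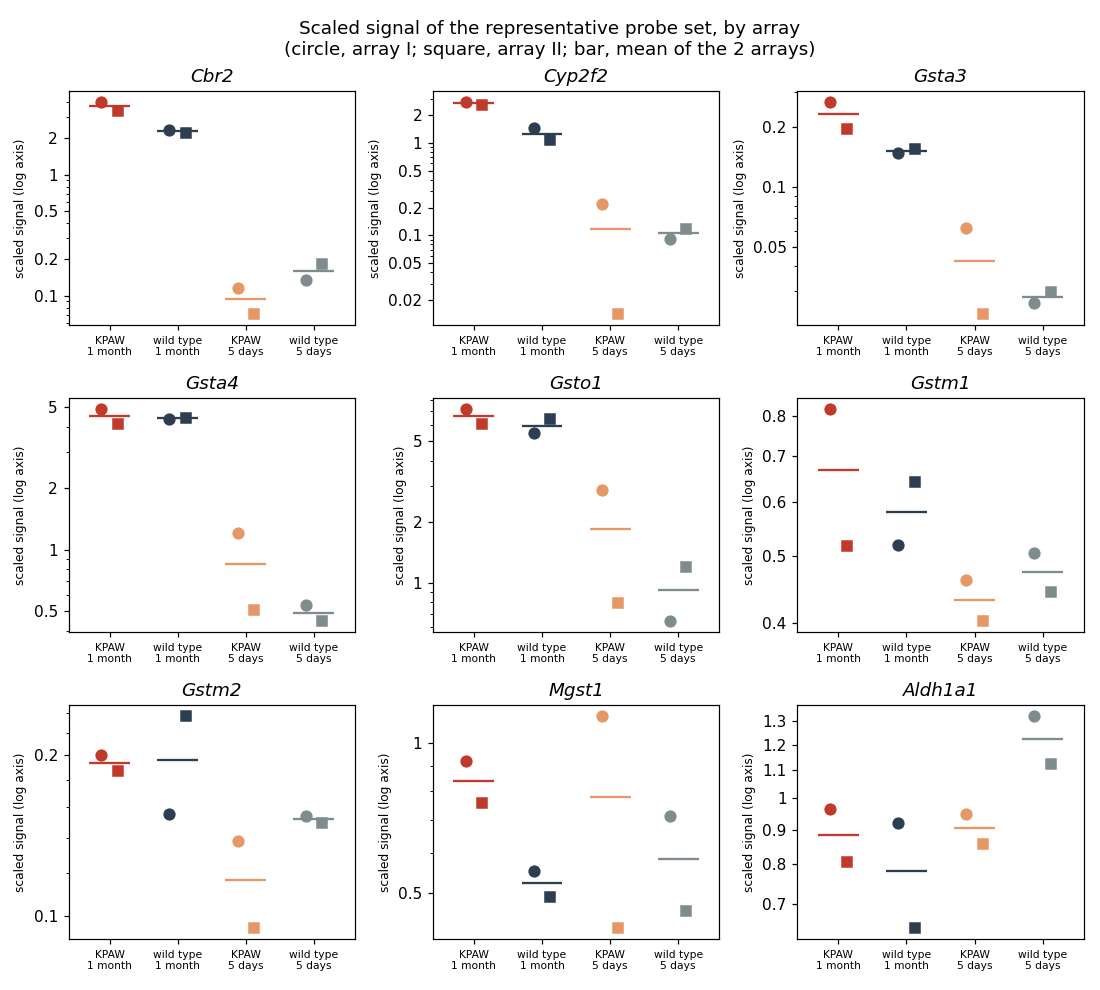
Scaled signal (log axis) of the representative probe set of each of the 9 genes on each array, grouped as KPAW at 1 month, wild type at 1 month, KPAW at 5 days and wild type at 5 days, with circles for array I, squares for array II and bars for group means. For Cbr2, Cyp2f2, Gsta3, Gsta4 and Gsto1 all 4 arrays at 1 month lie above all 4 at 5 days, and for Aldh1a1 the wild-type arrays at 5 days are the highest.

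Among the phase 1 enzymes, Cbr2 differed most. Cbr2 encodes carbonyl reductase 2, an NADPH-dependent enzyme that reduces aldehydes and ketones and is abundant in mouse lung. Its signal in KPAW eyes was 4.03 and 3.40 at 1 month, against 0.117 and 0.0706 at 5 days. In wild-type eyes it was 2.36 and 2.23 at 1 month, against 0.136 and 0.184 at 5 days. The lowest 1-month array was thus far above the highest 5-day array, in both kinds of eye. Cbr2 rose 33.1-fold in KPAW eyes (log2 fold change 5.05, SE 0.22, limma adjusted p = 7.98e-05), the 3rd largest rise of the 15838 probe sets. In wild-type eyes it rose 12.9-fold (3.69, SE 0.22, limma adjusted p = 0.000172), the 26th largest rise there.

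Cyp2f2, the cytochrome P450 that activates naphthalene in the club cells of mouse airways, followed. It gave 2.81 and 2.61 in KPAW eyes at 1 month, against 0.219 and 0.0140 at 5 days. Wild-type eyes gave 1.46 and 1.07 at 1 month, against 0.0922 and 0.118 at 5 days. The scaled signals of the 2 KPAW arrays at 5 days lay 15.7-fold apart, and the lower, 0.0140, was below the constant added before the log2. With that constant added, their log2 gap was 2.78, wider than 99.7% of all probe sets in that group. Both KPAW arrays at 5 days were still below every 1-month array. Cyp2f2 rose 29.8-fold in KPAW eyes (log2 fold change 4.89, SE 0.72, limma adjusted p = 0.00527) and 10.1-fold in wild-type eyes (3.34, SE 0.72, adjusted p = 0.0177). In wild type the call was lost when any 1 of the 4 wild-type arrays was left out (adjusted p up to 0.101).

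Aldh1a1 makes retinoic acid from retinaldehyde and oxidises other aldehydes, and in the eye is known from the lens, the cornea and the dorsal retina of the mouse. Its signal in KPAW eyes was 0.964 and 0.807 at 1 month, against 0.950 and 0.858 at 5 days. In wild-type eyes it was 0.920 and 0.644 at 1 month, against 1.32 and 1.12 at 5 days. It was the 1 probe set of the 14 with both wild-type arrays lower at 1 month, as were 33% of all probe sets. The log2 fold change was -0.03 (SE 0.19, limma adjusted p = 0.927) in KPAW eyes and -0.65 (SE 0.19, adjusted p = 0.054) in wild-type eyes. With values as deposited the wild-type value was -0.15 (adjusted p = 0.735).

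The alpha-class transferases were higher at 1 month. Gsta4, whose enzyme prefers 4-hydroxynonenal and related products of lipid peroxidation, gave 4.91 and 4.15 in KPAW eyes at 1 month, against 1.20 and 0.505 at 5 days. Wild-type eyes gave 4.39 and 4.42 at 1 month, against 0.533 and 0.445 at 5 days. The 1-month arrays of both kinds of eye overlapped, and all of them exceeded every 5-day array. Gsta4 rose 5.66-fold in KPAW eyes (log2 fold change 2.50, SE 0.34, limma adjusted p = 0.00371) and 8.72-fold in wild-type eyes (3.12, SE 0.34, adjusted p = 0.00128).

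Gsta3 conjugates the epoxide of aflatoxin in mouse liver. Its representative probe set (1423436_at) gave 0.268 and 0.196 in KPAW eyes at 1 month, against 0.0623 and 0.0229 at 5 days. The same probe set gave 0.148 and 0.156 in wild-type eyes at 1 month, against 0.0261 and 0.0296 at 5 days. The ages did not overlap in either kind of eye. It rose 4.13-fold in KPAW eyes (log2 fold change 2.05, SE 0.29, limma adjusted p = 0.00486) and 3.54-fold in wild-type eyes (1.82, SE 0.29, adjusted p = 0.00634). The second Gsta3 probe set (1423437_at) ran from 0.0220 to 0.0925. It rose in KPAW eyes (log2 fold change 1.15, SE 0.21, limma adjusted p = 0.011) and had a log2 fold change of 0.55 in wild-type eyes (SE 0.21, adjusted p = 0.105), where it passed with values as deposited (0.89, adjusted p = 0.0466).

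Gsto1, the omega-class enzyme that reduces dehydroascorbate and mixed disulfides rather than mainly conjugating, was also higher at 1 month. Its representative probe set (1416531_at) gave 7.22 and 6.10 in KPAW eyes at 1 month, against 2.88 and 0.794 at 5 days. Wild-type eyes gave 5.49 and 6.40 at 1 month, against 0.644 and 1.20 at 5 days. Gsto1 was separated by age in both kinds of eye, but KPAW array I at 5 days stood above the other 3 arrays of its age. It rose 4.33-fold in KPAW eyes (log2 fold change 2.11, SE 0.53, limma adjusted p = 0.0346) and 6.61-fold in wild-type eyes (2.73, SE 0.53, adjusted p = 0.0123). The KPAW call was the least firm. It was lost without KPAW array II at 5 days (log2 fold change 1.20, adjusted p = 0.0982), without either KPAW array or either wild-type array at 1 month, and when the KPAW arrays were fitted alone (adjusted p = 0.1). The wild-type call was lost without wild-type array I at 5 days or either wild-type array at 1 month (adjusted p up to 0.083).

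A second Gsto1 probe set (1456036_x_at), of a type that can also bind related transcripts, ran from 1.15 to 2.22 at 1 month and from 0.420 to 0.858 at 5 days. It rose 3.59-fold in wild-type eyes (log2 fold change 1.84, SE 0.36, limma adjusted p = 0.0131). In KPAW eyes its log2 fold change was 1.27 (SE 0.36, adjusted p = 0.053).

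The mu-class genes and Mgst1 moved less. Gstm1, a mu-class enzyme that conjugates many electrophiles, gave 0.819 and 0.517 in KPAW eyes at 1 month, against 0.461 and 0.403 at 5 days, on its representative probe set (1416416_x_at). Wild-type eyes gave 0.520 and 0.642 at 1 month, against 0.506 and 0.444 at 5 days. KPAW array I at 1 month was the highest of the 8. The log2 fold change was 0.57 (SE 0.22, limma adjusted p = 0.124) in KPAW eyes and 0.27 (adjusted p = 0.424) in wild-type eyes. The other 3 Gstm1 probe sets had log2 fold changes from -0.01 to 0.64 in KPAW eyes and from -0.09 to 0.11 in wild-type eyes, and none passed. Gstm2, of the same class, gave 0.2003 and 0.187 in KPAW eyes at 1 month, against 0.138 and 0.0946 at 5 days. Wild-type eyes gave 0.155 and 0.237 at 1 month, against 0.154 and 0.149 at 5 days. Its log2 fold change was 0.66 (SE 0.22, adjusted p = 0.0876) in KPAW eyes and 0.31 (adjusted p = 0.374) in wild-type eyes. Transcripts of the mu class are close in sequence, so their probe sets may share signal.

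Mgst1 encodes a membrane-bound transferase of the endoplasmic reticulum and outer mitochondrial membrane that also reduces lipid hydroperoxides. On its representative probe set (1415897_a_at) KPAW eyes gave 0.920 and 0.759 at 1 month, against 1.14 and 0.424 at 5 days. Wild-type eyes gave 0.553 and 0.491 at 1 month, against 0.712 and 0.459 at 5 days. The ages overlapped in both kinds of eye. The log2 fold change was 0.26 (SE 0.40, limma adjusted p = 0.712) in KPAW eyes and -0.13 (adjusted p = 0.849) in wild-type eyes.

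**Figure D2:**
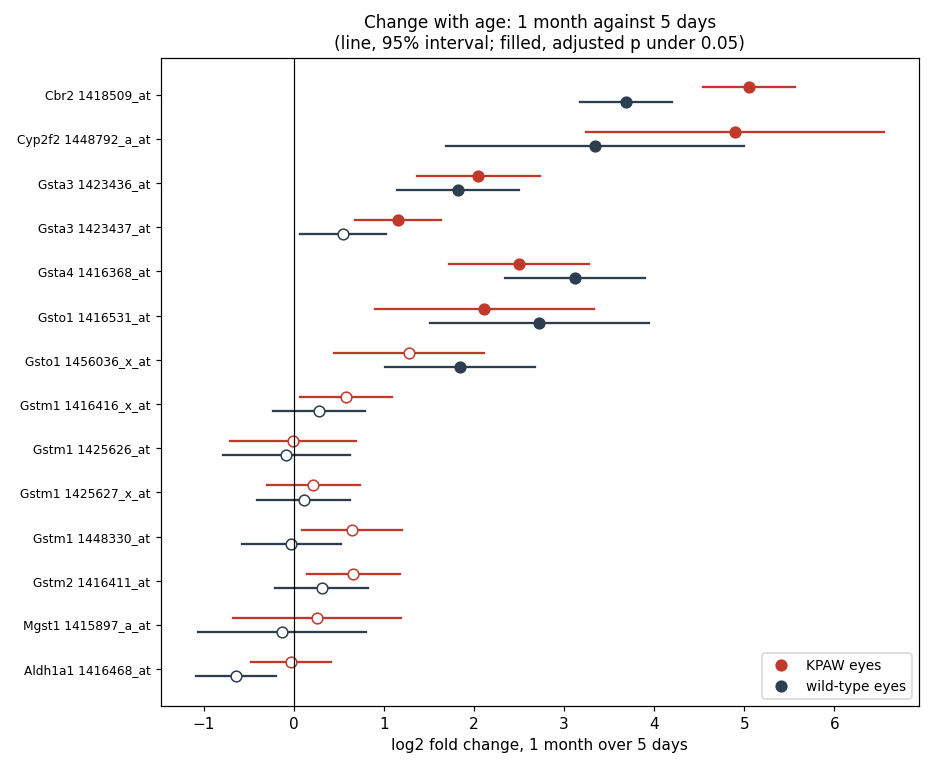
Log2 fold change of 1 month over 5 days (x axis) for the 14 probe sets tested, in KPAW and wild-type eyes, with lines for 95% intervals and filled points for an adjusted p under 0.05. Filled points lie at 1.15 to 5.05 in KPAW eyes and at 1.82 to 3.69 in wild-type eyes, while no Gstm1, Gstm2, Mgst1 or Aldh1a1 point is filled.

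The marker lists of other tissues moved with age beside these genes. The 12 corneal epithelial genes on the array summed to 22.5 and 24.9 in KPAW eyes at 1 month, against 12.2 and 4.69 at 5 days. In wild-type eyes they summed to 27.5 and 29.8 at 1 month, against 6.33 and 5.80 at 5 days. The 13 conjunctival and goblet cell genes summed to 19.7 and 11.02 in KPAW eyes at 1 month, against 4.34 and 1.10 at 5 days, and to 4.06 and 4.25 in wild-type eyes at 1 month, against 1.22 and 1.45 at 5 days. Within each kind of eye both lists were higher on both 1-month arrays, as were Cbr2, Cyp2f2, Gsta3, Gsta4 and Gsto1. Lists of the inner eye were higher too. Mueller glia genes summed to 15.81 to 19.85 at 1 month and 10.45 to 12.31 at 5 days. Pigment epithelium genes gave 17.06 to 20.93 and 11.7 to 15.17, and ciliary body and iris genes 3.23 to 4.13 and 1.91 to 2.50. These sums share genes. The Mueller glia list shares Clu with the corneal list, Rlbp1 with the pigment epithelium list and Aqp4 with the ciliary body and iris list. In wild-type eyes the lens sums overlapped between the ages, and the corneal stroma sums were lower at 1 month. In KPAW eyes both were higher at 1 month. There lens genes summed to 79.6 and 73.9, against 65.2 and 52.6 at 5 days, and stroma genes to 22.4 and 18.4, against 18.1 and 16.5. Rod sums in wild-type eyes were 33.5 and 45.2 at 1 month, against 8.60 and 9.74 at 5 days. In KPAW eyes they were 2.43 and 37.0, against 8.69 and 8.26. Lacrimal and harderian gland genes, 10 on the array and led by Aqp5, which the corneal list also holds, summed to 2.31 to 3.58 at 1 month and 0.235 to 0.853 at 5 days. Of the airway club cell genes, 5 were on the array besides Cbr2, Cyp2f2 and Aldh1a1; they summed to 0.194 to 0.282 at 1 month and 0.205 to 0.485 at 5 days, and Scgb1a1, their defining marker, was at the lowest listed value on all 8 arrays. Whether the number of surface epithelial cells, or of other cells, has a part in the changes with age was not tested.

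**Figure D3:**
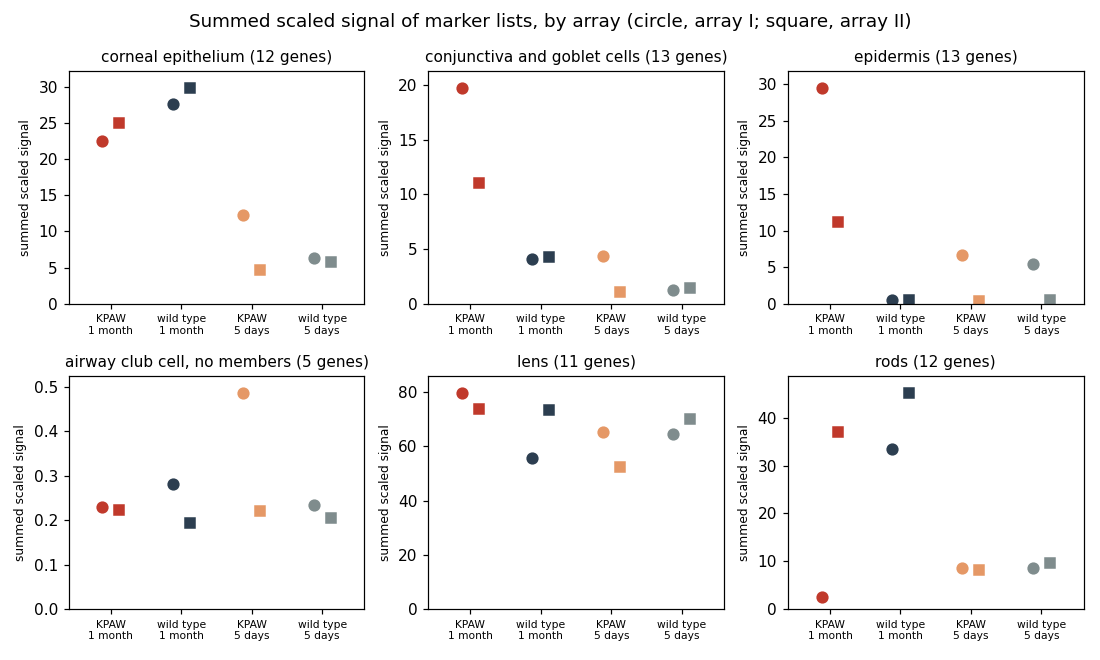
Summed scaled signal of 6 marker lists on each array (y axis from 0), grouped as KPAW at 1 month, wild type at 1 month, KPAW at 5 days and wild type at 5 days, with circles for array I and squares for array II. Within each kind of eye corneal and conjunctival sums are higher at 1 month. Epidermal sums reach 29.4 and 11.2 in KPAW eyes at 1 month, and the rod sum of KPAW array I at 1 month is 2.43.

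KPAW array I at 5 days carried more surface signal than its partner, and the same held for several detoxifying genes. Beside the corneal sums of 12.2 on array I and 4.69 on array II, the epidermal sums were 6.61 and 0.434. In wild-type eyes at 5 days the epidermal sums also differed, 5.48 on array I and 0.518 on array II. There Gsto1 (0.644 and 1.20), Cbr2 (0.136 and 0.184), Cyp2f2 (0.0922 and 0.118) and Gsta3 (0.0261 and 0.0296) were lower on array I. Mgst1 (0.712 and 0.459), Gsta4 (0.533 and 0.445) and Aldh1a1 (1.32 and 1.12) were higher on array I of wild type, as were Gstm1 and Gstm2. In KPAW eyes at 5 days the scaled signals of Cyp2f2, Gsto1, Gsta3, Mgst1 and Gsta4 were higher on array I than on array II. The ratios were 15.7-fold, 3.62-fold, 2.72-fold, 2.68-fold and 2.38-fold. On the log2 scale, with the constant added, the gap of each was wider than 96.8% or more of all probe sets. Cbr2 was 1.65-fold and Gstm2 1.46-fold higher on array I, and Gstm1 (1.15-fold on 1416416_x_at) and Aldh1a1 (1.11-fold) were close. Of the other Gstm1 probe sets, 1425626_at (1.58-fold) and 1425627_x_at (1.16-fold) were lower on array I, and 1448330_at (1.065-fold) was higher. Array I also lacked the high Xist signal of array II. With array II at 5 days left out, which leaves a single 5-day KPAW array, and that one with low Xist, the change with age passed for Cbr2 (log2 fold change 4.75), Cyp2f2 (3.51), Gsta3 (1.59) and Gsta4 (1.89). It did not pass there for Gsto1 1416531_at (1.20, limma adjusted p = 0.0982) or Gsta3 1423437_at (0.97, adjusted p = 0.0663). The part of sex in the changes with age was not tested. Without KPAW array I at 1 month, whose rod sum stood apart, the rises with age in KPAW eyes that passed included Cbr2 (4.93), Cyp2f2 (4.84), Gsta3 (1.84) and Gsta4 (2.38).

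Genes of related pathways, taken from lists, gave the setting for these 9. Of 14 other glutathione transferases tested, 3 rose with age in KPAW eyes and none fell, and 3 rose and 1 fell in wild-type eyes. Their median log2 fold change was 0.32 in KPAW eyes and 0.19 in wild-type eyes. Gsta2, a second alpha-class enzyme, gave 0.149 and 0.159 in KPAW eyes at 1 month, against 0.0786 and 0.0494 at 5 days, and 0.239 and 0.213 in wild-type eyes at 1 month, against 0.0641 and 0.0510 at 5 days. All 4 arrays at 1 month exceeded all 4 at 5 days, a log2 rise of 1.06 in KPAW eyes and 1.66 in wild-type eyes. The theta-class Gstt1 rose by 1.39 and 0.95. Gstp1 of the pi class rose by 0.46 in KPAW eyes, Gstt3 rose by 1.63 in wild-type eyes, and Gstm5 had the one fall, -0.92, in wild-type eyes.

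Genes that make, recycle and use glutathione were mixed. Of 22 tested, 4 rose and 1 fell in KPAW eyes and 3 rose and 4 fell in wild-type eyes, with medians of 0.24 and 0.02. Gpx3, the secreted glutathione peroxidase, rose by 2.05 on the log2 scale in KPAW eyes and 1.96 in wild-type eyes, and Chac1, which degrades glutathione, by 1.31 and 1.23. Ggct, which acts on gamma-glutamyl amino acids in glutathione turnover, gave 0.0852 and 0.0672 in KPAW eyes at 1 month, against 0.252 and 0.311 at 5 days, and 0.0679 and 0.0631 in wild-type eyes at 1 month, against 0.358 and 0.430 at 5 days. Its log2 fold change was -1.64 in KPAW eyes and -2.26 in wild-type eyes (limma adjusted p = 0.00036 in wild type). Of 19 antioxidant genes linked to NRF2, 6 rose and 1 fell in each kind of eye, with medians of 0.33 and 0.17. The epoxide hydrolase Ephx1 rose by 1.499 in KPAW eyes and 1.37 in wild-type eyes, and the sulfiredoxin Srxn1 by 0.97 and 1.21. Sod3, the extracellular superoxide dismutase, rose by 1.24 in KPAW eyes. In wild-type eyes Tkt, the corneal transketolase, rose by 1.15, and Hmox1, heme oxygenase 1, had a log2 fold change of -1.02.

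The aldehyde dehydrogenase with the largest change was Aldh3a1. It gave 1.75 and 3.08 in KPAW eyes at 1 month, against 0.0487 and 0.162 at 5 days, and 4.14 and 4.56 in wild-type eyes at 1 month, against 0.173 and 0.102 at 5 days. The ages were far apart in both kinds of eye, with a log2 rise of 4.38 in KPAW eyes and 4.82 in wild-type eyes. Of the 15 other aldehyde dehydrogenases tested, 2 rose and 2 fell in KPAW eyes, and 1 rose and 2 fell in wild-type eyes. Those that fell in both were Aldh1a7, a close relative of Aldh1a1 (-1.08 in KPAW eyes and -1.29 in wild-type eyes), and Aldh18a1, an enzyme of proline synthesis (-1.18 and -0.77). The list's medians were 0.07 and 0.34.

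Of 19 other carbonyl, aldo-keto and alcohol oxidoreductases, 5 rose and 1 fell in KPAW eyes and 4 rose and 1 fell in wild-type eyes, with medians of 0.15 and 0.26. Adh7, which oxidises retinol and other alcohols in epithelia, rose by 1.98 in KPAW eyes and 2.15 in wild-type eyes, and Dcxr, a dicarbonyl reductase, by 1.81 and 1.20. Akr1c18 rose by 1.67 in KPAW eyes, and Adh1 by 2.22 in wild-type eyes. Of 24 other cytochromes P450 and phase 1 enzymes, 4 rose and 1 fell in each kind of eye, with medians of 0.29 and 0.21. Cyp27a1, a sterol hydroxylase, rose by 1.71 in KPAW eyes. Cyp3a13 rose by 0.97 in KPAW eyes and 1.16 in wild-type eyes, Cyp2d22 by 0.91 and 1.18, and Ephx2 by 0.94 in wild-type eyes. These rises were smaller than those of Cbr2 and Cyp2f2.

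Of 11 other conjugating enzymes and esterases, 5 rose in KPAW eyes and 4 in wild-type eyes, and none fell, with medians of 0.84 and 0.52. The lactonase Pon1 rose by 2.10 in KPAW eyes and 2.51 in wild-type eyes. The sulfotransferase Sult1c1 (1.56) and the sulfurtransferase Tst (1.44) rose in KPAW eyes, and the carboxylesterase Ces1d (2.26) and Sult4a1 (1.13) in wild-type eyes. Of 20 retinoid pathway genes, 5 rose and 1 fell in KPAW eyes and 6 rose and 1 fell in wild-type eyes, with medians of 0.18 and 0.30. Rpe65, the isomerase of the visual cycle, rose by 3.602 in KPAW eyes and 3.66 in wild-type eyes, and the retinol carrier Rbp2 by 2.22 and 3.45. Crabp1, which binds retinoic acid in the cytoplasm, had log2 fold changes of -1.69 and -1.83.

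**Figure D4:**
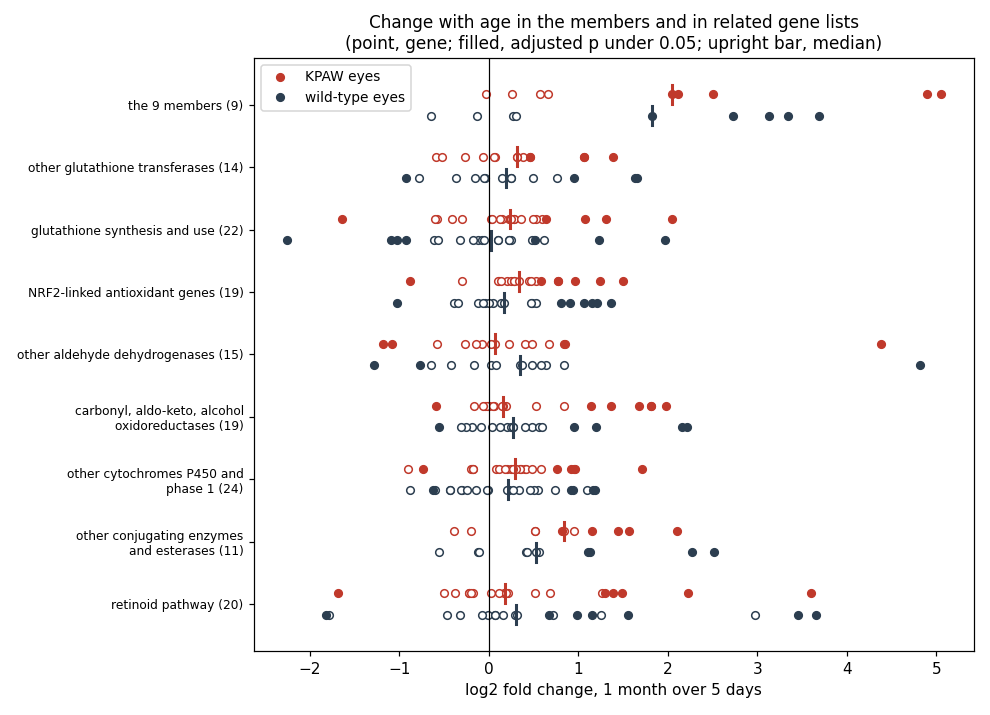
Log2 fold change of 1 month over 5 days (x axis) for the 9 genes and for 8 related gene lists, with KPAW eyes drawn above wild-type eyes, a point for each gene, filled points for an adjusted p under 0.05 and upright bars for medians. The medians of the 9 genes, 2.05 and 1.82, lie right of the list medians, which run from 0.07 to 0.84 in KPAW eyes and from 0.02 to 0.52 in wild-type eyes. The genes and lists were chosen with earlier results of these data known, so this placing is no test.

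The comparison of KPAW with wild-type eyes asked whether the same enzymes differed at a given age. At 1 month 0 of the 14 probe sets passed (lowest limma adjusted p = 0.675), as 0.0253% of all probe sets did. At an unadjusted p under 0.05 there were 2 of the 14, Cbr2 and the second Gsta3 probe set, beside 6.95% of all probe sets. Both KPAW signals exceeded both wild-type signals for 5 of the 14, namely Cbr2, Cyp2f2, both Gsta3 probe sets and Mgst1, beside 17% of all probe sets, and the other 9 overlapped. The median log2 fold change of the 14 was 0.18, beside -0.01 over all probe sets.

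Cbr2 gave 4.03 and 3.40 in KPAW eyes at 1 month, against 2.36 and 2.23 in wild-type eyes, a log2 fold change of 0.69 (95% interval 0.18 to 1.20, limma adjusted p = 0.675). Cyp2f2 gave 2.81 and 2.61 in KPAW eyes, against 1.46 and 1.07 in wild-type eyes, with a log2 fold change of 1.10 (95% interval -0.56 to 2.76, adjusted p = 0.698). Both KPAW arrays were higher for each gene, and neither difference passed. Mgst1 gave 0.920 and 0.759 in KPAW eyes, against 0.553 and 0.491 in wild-type eyes, with a log2 fold change of 0.66 (95% interval -0.27 to 1.59). For Gsta3 the log2 fold changes were 0.53 (95% interval -0.15 to 1.21) and 0.56 (95% interval 0.09 to 1.04) on its 2 probe sets. Gsta4, Gsto1 (1416531_at) and Gstm2 had log2 fold changes of 0.03 (95% interval -0.74 to 0.81), 0.16 (95% interval -1.05 to 1.38) and 0.01 (95% interval -0.51 to 0.52). The second Gsto1 probe set (1456036_x_at) had -0.22 (95% interval -1.06 to 0.61). Those intervals still allow differences in either direction. Aldh1a1 had 0.19 (95% interval -0.26 to 0.64).

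The 1-month KPAW arrays differed from each other in composition, as the rod sums of 2.43 and 37.0 show, and their conjunctival sums of 19.7 and 11.02 were above the 4.06 and 4.25 of wild-type eyes, while their corneal sums of 22.5 and 24.9 were below 27.5 and 29.8. The part of these in the KPAW values was not tested. Without KPAW array I at 1 month, 0 of the 14 passed and the log2 fold changes were 0.56 for Cbr2, 1.05 for Cyp2f2, 0.52 for Mgst1 and -0.087 for Gsta4. Without KPAW array II at 1 month, that group was left with array I alone, the array with the rod sum of 2.43. The Gstm1 probe set 1448330_at then had a log2 fold change of 0.84. That probe set gave 0.823 and 0.462 in KPAW eyes, against 0.419 and 0.487 in wild-type eyes, so the groups overlapped. Directions near 0 rested on the scaling. With values as deposited the median of all probe sets shifted to -0.26, and 7 of the 14 changed sign, those of Gsta4, Gsto1 (1416531_at), Gstm2, Aldh1a1 and 3 Gstm1 probe sets.

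At 5 days 0 of the 14 probe sets passed for KPAW against wild-type eyes (limma adjusted p = 0.9999 for each), as 0% of all probe sets did. Without KPAW array II at 5 days 27 of all probe sets passed, and still 0 of the 14. At an unadjusted p under 0.05 there was 1, Cbr2, beside 2.39% of all probe sets. Both KPAW arrays lay below both wild-type arrays for 4 of the 14, Cbr2, Gstm1 (1448330_at), Gstm2 and Aldh1a1, beside 16.6% of all probe sets. None lay above. Cbr2 gave 0.117 and 0.0706 in KPAW eyes, against 0.136 and 0.184 in wild-type eyes, a log2 fold change of -0.67 (95% interval -1.18 to -0.16). Gsta4 (0.66, 95% interval -0.12 to 1.44) and Gsto1 (0.77, 95% interval -0.44 to 1.99) had the highest values, both carried by KPAW array I. Aldh1a1 gave 0.950 and 0.858 in KPAW eyes, against 1.32 and 1.12 in wild-type eyes, with a log2 fold change of -0.42 (95% interval -0.87 to 0.02).

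Whether the KPAW difference changed between the ages was tested as an interaction. None of the 14 probe sets passed by limma (lowest adjusted p = 0.809), as 0% of all probe sets did, and 1, Cbr2, had an unadjusted p under 0.05, beside 5.88% of all. The Cbr2 interaction was 1.36 on the log2 scale (95% interval 0.64 to 2.08). That of Cyp2f2 was 1.55 with an SE of 1.02, and those of Gsta4 and Gsto1 were -0.62 and -0.61.

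**Figure D5:**
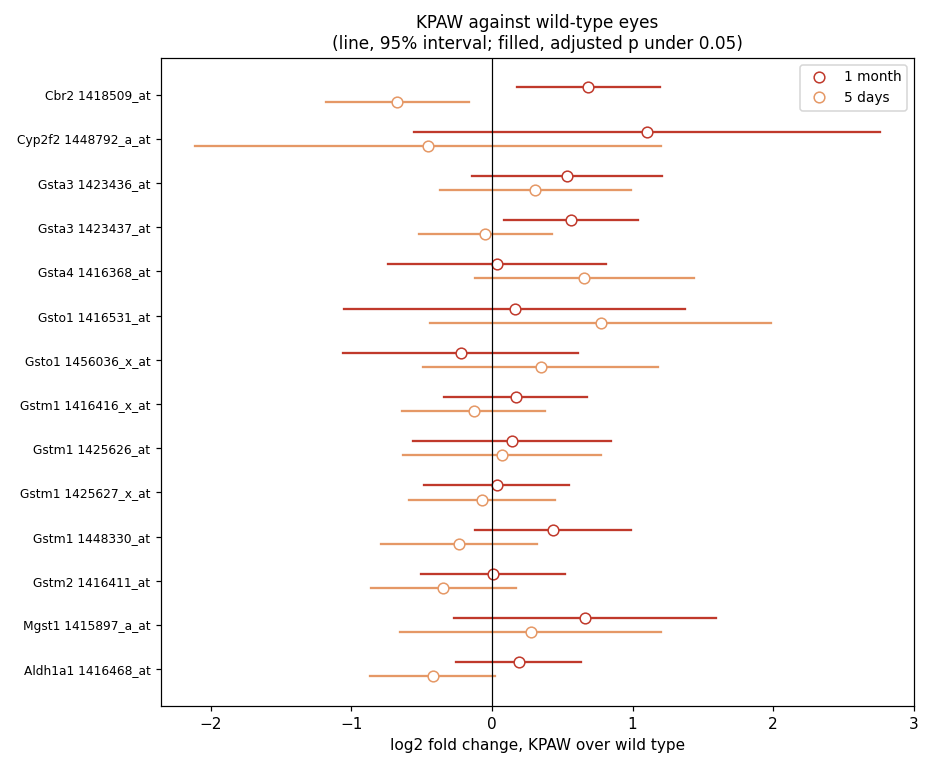
Log2 fold change of KPAW over wild type (x axis) at 1 month and at 5 days for the 14 probe sets tested, with lines for 95% intervals and open points because no adjusted p was under 0.05. The Cbr2 intervals lie on opposite sides of 0, at 0.69 for 1 month and -0.67 for 5 days, and most other intervals cross 0.

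No gene of the 8 related lists passed for KPAW against wild-type eyes at either age, and the list medians at 1 month ran from -0.19 for the retinoid pathway to 0.22 for glutathione synthesis and recycling. The members with the largest statistics at 1 month were given as values. Among them Crabp2, a retinoic acid binding protein, had a log2 fold change of 3.22 (limma adjusted p = 0.436), Sult2b1, a cholesterol sulfotransferase, 1.73 (0.675), Akr1c18 1.42 (0.444), Hmox1 0.98 (0.607), Cyp7b1 0.70, Cbr3 0.66, Gpx8 0.55, Tst 0.45, Gclm 0.43, Inmt 0.42, Txn1 0.38, Abcc1 0.34, Ptges 0.31 and Fmo1 0.29. On the lower side were Rdh12 at -1.83, Aldh3a1 at -0.90, Tkt at -0.62 (0.41), Gstt2 at -0.53, Gsta2 at -0.50, Aldh1l1 at -0.42, Akr1e1 at -0.41, Rdh14 at -0.33, Ephx2 at -0.32 and Aldh18a1 at -0.30. None of these passed.

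Across the 8 arrays the 5 genes that rose with age followed each other. Pearson's r between their log2 signals ran from 0.9 for Cbr2 and Gsto1 to 0.979 for Gsta3 and Gsta4, points that share the difference between the ages. Mgst1 correlated with the other 8 at 0.365 or less, and Aldh1a1 had an r of -0.637 with Gsto1. The genes outside the set with the most similar pattern to Cbr2 were Aldoc (0.994), Mpp2 (0.993) and Psmb8 (0.993), and those for Cyp2f2 were Ifitm1 (0.996), Sod3 (0.990) and Anxa7 (0.989). For Gsta3 they were Best2 (0.996), Ifi35 (0.992) and Pglyrp1 (0.992), for Gsta4 Plac8 (0.998), Nbeal2 (0.995) and Prss22 (0.995), and for Gsto1 Ppm1m (0.987), Mal (0.985) and Psca (0.984). The nearest to Gstm1 was Tpcn1 (0.981), to Gstm2 the lens crystallin Crygs (0.969) and to Aldh1a1 Nif3l1 (0.954). Mgst1 was most like the epithelial genes Krt17 (0.973), Elf5 (0.970) and Ly6d (0.955).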

How the data were processed

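RNA of KPAW and wild-type eyes was measured on 8 arrays (2 per group, 4 groups). Per the file headers, the authors deposited a single signal for each probe set on each array. These were treated as linear from their range, with a fixed lowest value of 0.01, no negative value and a highest of 11.1. The software and its settings are not given in the sources used here. Of 22690 probe sets, 64 controls were left out. Arrays were scaled to the median of their trimmed means (2% off each end, scale factors 0.711 to 1.26), 0.0211 (the 20th percentile of positive values) was added before the log2, and probe sets with a mean signal above the 30th percentile kept (15838). A limma model (3.58.1, R 4.3.3) with a mean per group and a variance trend took in all arrays (4 residual degrees of freedom), with Benjamini-Hochberg adjustment over all probe sets kept, called under 0.05. The number of arrays limits the precision. The model was tested on simulated data.

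All 9 genes are named. A gene is represented by its probe set with the highest mean signal. From the lists, up to 3 called genes with the largest change per age contrast are named, or, where none passed, up to 3 with the largest statistic at 1 month. Gstm5 and Hmox1 with age in wild type, Xist, Scgb1a1 and Aqp5 were named after their values were seen. The similarity of pattern is Pearson's r of log2 signals. The genes and lists were chosen with earlier results of these data known. Gene names come from the platform annotation, and promoter sequences from RefSeq on GRCm38.p6. Alternatives were quantile normalization, no scaling, other pseudocounts and filters, a fit of only the groups compared, a replicate block and leaving out each array. Python 3.11.15, pandas 2.3.3 and matplotlib 3.10.9 made tables and plots.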

Additional observations from a re-analysis of the deposited data

Results flagged for a closer look

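The estimated difference between KPAW and wild-type eyes in Cbr2 had opposite signs at 1 month and 5 days, though it did not pass at either age. Both KPAW signals exceeded both wild-type signals at 1 month (4.03 and 3.40 in KPAW eyes, against 2.36 and 2.23 in wild-type eyes) and below them at 5 days (0.117 and 0.0706 in KPAW eyes, against 0.136 and 0.184 in wild-type eyes). The interaction was 1.36 on the log2 scale (SE 0.31). Its unadjusted limma p was 0.00249 and its limma adjusted p 0.809 over all probe sets, so it did not pass. For the interaction 5.88% of all probe sets had an unadjusted p under 0.05.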

How the results depend on the processing

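Of the 9 genes, Cbr2, Gsta3 (1423436_at) and Gsta4 passed for age in both kinds of eye under every alternative run, and Cyp2f2 passed in KPAW eyes under all of them. Leaving out each array in turn (a lone array being assumed to vary like the other groups) gave log2 fold changes in KPAW eyes of 4.75 to 5.34 for Cbr2, 3.51 to 6.28 for Cyp2f2, 1.59 to 2.51 for Gsta3 and 1.89 to 3.11 for Gsta4. In wild-type eyes they were 3.49 to 3.88 for Cbr2, 1.77 to 1.87 for Gsta3 and 2.998 to 3.25 for Gsta4. The number of probe sets past the threshold among the 14 ran from 0 to 1 for KPAW against wild type at 1 month and for the interaction, from 3 to 7 for age in wild-type eyes and from 4 to 8 for age in KPAW eyes. The 1 in both was Gstm1 1448330_at without KPAW array II at 1 month, and the count of 3 came without array I at 5 days or array II at 1 month of wild type. Aldh1a1 with age in wild-type eyes (-0.65) passed with the replicate block (limma adjusted p = 0.0221) and with the filter at the 50th percentile (0.049). Gsta3 1423437_at in KPAW eyes did not pass without array II at 5 days (0.0663) or with only the groups compared (0.054). Aldh1a1 in wild-type eyes also passed without wild-type array I, KPAW array I or KPAW array II at 1 month (adjusted p 0.0423 to 0.0437), but over all single arrays left out it ran from -0.90 to -0.396 (adjusted p up to 0.262), and with values as deposited it was -0.15 (0.735). Gsta3 1423437_at in wild-type eyes passed with values as deposited (0.89, 0.0466). In KPAW eyes Gstm1 1416416_x_at (0.89) and Gstm1 1448330_at (1.04) passed without KPAW array II at 1 month. Gsto1 1456036_x_at passed in KPAW eyes without array I at 5 days (1.67) or array II at 1 month (1.74), with values as deposited (1.305) and with the filter at the 50th percentile (1.27). In wild-type eyes it did not pass without array I at 5 days (1.59) or either array at 1 month (1.67 and 2.02).

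Same-numbered arrays did not deviate together throughout: the 6 correlations of their deviations from the group means ran from -0.017 to 0.309. The highest, 0.309, was between the KPAW and wild-type groups at 5 days. In the main fit the numerals were read as names, not pairs. Whether same-numbered arrays shared a batch was not tested. With a replicate block, 0, 0 and 0 of the 14 passed in the KPAW comparisons and the interaction, and 7 each for age in wild-type and KPAW eyes, the added ones being Aldh1a1 and Gsto1 1456036_x_at.

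Over all probe sets, 4 passed for KPAW against wild type at 1 month. Beside this, 99 passed with values as deposited, 13 with the block and 19 with only the groups compared. Fewer passed, 2, with the pseudocount at the 5th percentile and with the filter at the 50th percentile. Leaving out single arrays moved the count both down and up, the most upward without KPAW array II at 1 month. At 5 days 0 passed, and 27, of which 26 were higher, without KPAW array II at 5 days. For age in wild-type eyes 1382 were higher and 1478 lower, beside 3238 and 327 with values as deposited, where the median of all probe sets was 0.44. For age in KPAW eyes 1070 were higher and 1189 lower, beside 873 and 470 with values as deposited. Passing counts for age in KPAW eyes were 2259, against 604 with only the groups compared and 733 without KPAW array II at 5 days. For age in wild-type eyes they were 2860, against 848 to 1133 without a single wild-type array. The interaction gave 0, but 36 with values as deposited, 306 without KPAW array II at 1 month and 11 without KPAW array II at 5 days. The same medians were -0.26 and 0.18 for KPAW against wild type at 1 month and 5 days, and -0.45 for the interaction. Several uncalled differences near 0 changed sign with values as deposited. For KPAW against wild type at 1 month they were Gsta4 (-0.25), Gstm1 1416416_x_at (-0.10), Gstm1 1425626_at (-0.088), Gstm1 1425627_x_at (-0.22), Gstm2 (-0.25), Gsto1 1416531_at (-0.12) and Aldh1a1 (-0.085). For KPAW against wild type at 5 days they were Gsta3 1423437_at (0.060), Gstm1 1416416_x_at (0.058) and Gstm1 1425627_x_at (0.099). For the interaction they were Gsta3 1423436_at (-0.12), Gstm1 1416416_x_at (-0.16), Gstm1 1425626_at (-0.31), Gstm1 1425627_x_at (-0.32), Gstm2 (-0.070) and Mgst1 (-0.074). For age in wild-type eyes they were Gstm1 1425626_at (0.31), Gstm1 1448330_at (0.46) and Mgst1 (0.36). Gsta4 at 1 month was also below 0 with quantile normalization (-0.12).

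Leaving out single arrays turned the sign of further uncalled log2 differences, whose range was as follows. For KPAW against wild type at 1 month it was -0.087 to 0.16 for Gsta4, -0.15 to 0.49 for Gstm1 1416416_x_at, -0.16 to 0.45 for Gstm1 1425626_at and -0.039 to 0.11 for Gstm1 1425627_x_at. It was also -0.27 to 0.28 for Gstm2, -0.69 to 0.25 for Gsto1 1456036_x_at and -0.060 to 0.44 for Aldh1a1. For KPAW against wild type at 5 days it was -1.84 to 0.94 for Cyp2f2, -0.15 to 0.77 for Gsta3 1423436_at, -0.23 to 0.14 for Gsta3 1423437_at and -0.19 to 0.33 for Gstm1 1425626_at. It was also -0.41 to 0.27 for Gstm1 1425627_x_at, -0.14 to 1.69 for Gsto1 1416531_at, -0.047 to 0.74 for Gsto1 1456036_x_at and -0.42 to 0.96 for Mgst1. For the interaction it was -0.24 to 0.69 for Gsta3 1423436_at, -0.021 to 0.62 for Gstm1 1416416_x_at, -0.23 to 0.38 for Gstm1 1425626_at and -0.23 to 0.44 for Gstm1 1425627_x_at. It was also -1.53 to 0.30 for Gsto1 1416531_at and -0.30 to 1.076 for Mgst1. For age in wild-type eyes it was -0.38 to 0.21 for Gstm1 1425626_at, -0.23 to 0.45 for Gstm1 1425627_x_at, -0.13 to 0.075 for Gstm1 1448330_at and -0.44 to 0.18 for Mgst1. For age in KPAW eyes it was -0.32 to 0.29 for Gstm1 1425626_at, -0.43 to 0.95 for Mgst1 and -0.16 to 0.092 for Aldh1a1. The cause of these sign changes was not tested.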
